A study of Bos taurus and Cervus elaphus with 24 samples.

Results

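STEAP4 and 8 further genes of iron handling were followed in blood of cattle and deer between the dry period and peak lactation. The members were all non-control probes whose gene name on the array was STEAP4, STEAP3, TFRC, SLC11A1, SLC11A2, SLC40A1, FTH1, ACO1 or IREB2. These 9 of 15652 named genes had 28 of the 43653 non-control probes. STEAP4 and IREB2 had 1 probe each, SLC11A1 and ACO1 2 each, TFRC and SLC40A1 3 each, STEAP3 4, and SLC11A2 and FTH1 6 each. The set was built around the STEAP4 response to lactation, which differed between cattle and deer. The lactation effects of STEAP4, its deer and cattle levels, and the difference between the deer and cattle responses of every member are therefore given as descriptions with no test.

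The study hybridised total RNA of 4 Holstein-Friesian cows (HF), 4 Polish Red cows (PR) and 4 deer (Cervus elaphus) to 24 Agilent bovine arrays. Each animal was bled in the dry period, when no milk is made, and at peak lactation, which gave 6 groups of 4 arrays. No treatment, transgene or age is named in the labels. Blood went into tubes that stabilise RNA, and the labels call the source peripheral blood nuclear cells. The sample was always in the Cy5 channel, and a pool from 20 cattle outside the groups was always in the Cy3 channel. Every value below is a log2 ratio of Cy5 over Cy3, so 0 is the level of the cattle pool, and a difference of 1 is a doubling. Deer RNA was read on probes designed for cattle, so a level difference between the species and a mismatch with the probe cannot be told apart. In blood, fewer cells of a type and less RNA per cell cannot be told apart either.

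Iron travels in plasma on transferrin and enters cells when transferrin binds its receptor, which TFRC encodes. In the endosome the ferric iron must be reduced before it can leave, and STEAP3 is the reductase of this step in red cell precursors. STEAP4 is a related metalloreductase for iron and copper, known from fat, liver and inflamed tissue and from granulocytes. SLC11A2 (DMT1) carries the reduced iron into the cytosol, SLC11A1 (NRAMP1) moves divalent metals across the phagosome membrane of macrophages and neutrophils, and SLC40A1 (ferroportin) exports iron from the cell. FTH1 is the ferroxidase subunit of ferritin, the iron store. ACO1 (IRP1) and IREB2 (IRP2) bind iron-responsive elements in the transcripts of ferritin, ferroportin, the transferrin receptor and one form of SLC11A2, and so set their translation or stability by the cell's iron.

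The probes are 60 bases long. The STEAP4 probe is shown because the cattle and deer response rests on it alone. The files place it at chr4:72833506-72833565 on the minus strand of the UMD 3.1 cattle assembly. A pair of SLC40A1 probes is shown because their deer levels differ from that of the brightest SLC40A1 probe. The first lies at chr2:6738930-6738989 on the plus strand, and the second spans chr2:6718482-6723767 on the plus strand, 5286 bases for 60 bases of probe. A pair of FTH1 probes is shown with capitals for the longest run they share, 31 bases, since the FTH1 probes are not independent readings. Most lower-case bases after this run match too, shifted by an extra c in the second probe. The first of that pair lies at chr29:41172749-41172808 on the minus strand. The files give the second only 21 bases of placement, at chr29:41172411-41172431. All sequences are copied from the spot files, 5′ to 3′.
STEAP4 probe: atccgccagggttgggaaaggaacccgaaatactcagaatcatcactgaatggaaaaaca
SLC40A1 probe at 6738930: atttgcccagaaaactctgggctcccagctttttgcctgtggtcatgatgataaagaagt
SLC40A1 probe at 6718482: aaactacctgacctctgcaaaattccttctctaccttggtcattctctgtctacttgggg
FTH1 probe at 41172749: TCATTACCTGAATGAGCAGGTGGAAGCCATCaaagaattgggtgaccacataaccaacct
FTH1 probe at 41172411: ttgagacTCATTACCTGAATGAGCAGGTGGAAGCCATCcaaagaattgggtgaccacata

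The Cy5 signal was well above background on all 24 arrays for 26 of the 28 probes, the exceptions being 1 STEAP3 probe with 20 arrays and 1 SLC11A2 probe with 16. No member spot was saturated. Median Cy5 intensity was 108.5 to 254.9 on 23 arrays and 2038 on PR dry replicate 1, which also had 696 outlier spots. The arrays of HF animals 2 and 3 had low spike-in correlations in the file headers, 0.174 to 0.401, as did PR dry replicate 1 at 0.331, while all other arrays were at 0.899 or above. The log2 ratios were wider in deer, with an SD of 0.524 to 0.847 over probes against 0.194 to 0.47 in cattle, and deer lactation replicates 2 and 4 had the narrowest spread among deer. Defining markers of neutrophils and monocytes, 10 of 10 on each list, were well above background on all 24 arrays, as were 7 of 10 erythroid markers. None of the 10 slides held both cattle and deer, so slide and species cannot be told apart. For each gene with several probes, the brightest over all arrays is called the lead probe.

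STEAP4 was higher at peak lactation than in the dry period in all 4 HF cows and in 3 of 4 PR cows, and lower in 3 of 4 deer. In HF the dry values were -0.88, -1.28, -0.92 and -1.17 in animals 1 to 4, and the lactation values -0.18, 0.18, 0.81 and -0.36. The HF groups did not overlap, and the lactation mean lay 1.17 above the dry mean (SE 0.28), a ratio of 2.26. In PR the dry values were -0.31, -0.66, 0.42 and 0.15, and the lactation values 0.47, 0.57, 0.07 and 0.48. The PR groups overlapped, because animal 3 went from the highest dry value to the lowest lactation value. The PR difference was 0.50 (SE 0.28), and 0.31 without dry PR replicate 2. In deer the dry values were -0.65, -0.82, -0.91 and 0.13, and the lactation values -1.83, -0.73, -1.13 and -1.71. Deer animals 1 and 4 fell by 1.17 and 1.83, whereas animals 2 and 3 moved by 0.10 and -0.22, so the deer difference of -0.78 (SE 0.28) was carried by 2 animals. The SEs here and for the differences between responses come from a fit with a spread shared by all groups and no animal term. They do not measure the spread of the changes within animals. Those STEAP4 changes had an SD of 0.50 in HF, 0.67 in PR and 0.89 in deer, each over 4 animals.

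**Figure D1:**
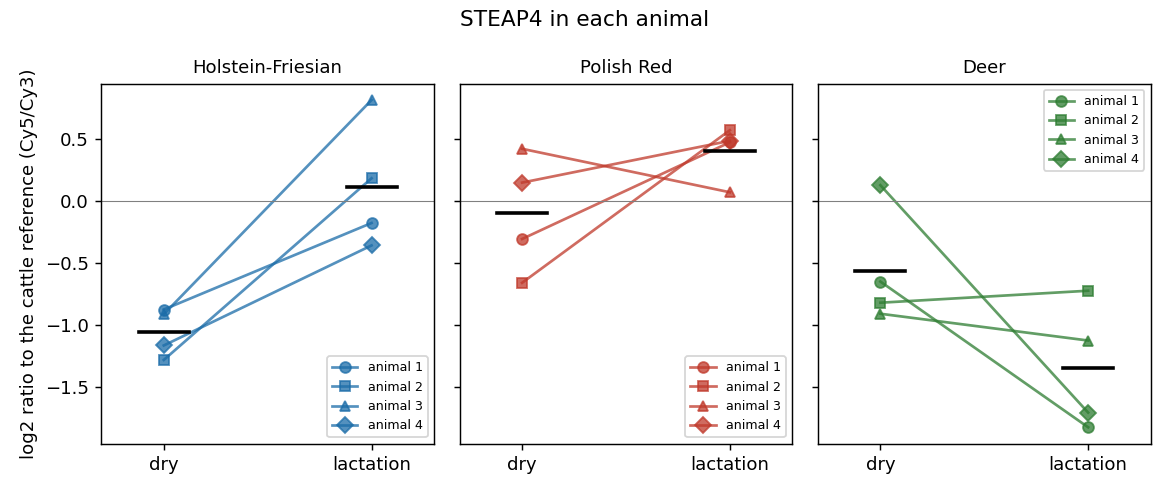
STEAP4 log2 ratio to the cattle reference (vertical axis) before and during lactation, 1 panel each for Holstein-Friesian, Polish Red and deer. Lines join the values of 1 animal and black bars are means of 4; the lines go up in 4 of 4 HF and 3 of 4 PR cows and down in 3 of 4 deer.

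The deer response minus the mean response of both breeds was -1.62 (SE 0.34). Over 37 alternative settings, including each array left out in turn, this difference stayed between -1.84 and -1.39. Some of these settings cannot move it: the animal block, the changed filters on dim probes, the groups of the contrast alone and the median over probes. It was -1.58 without PR dry replicate 1, -1.41 without HF animals 2 and 3, and -1.75 without deer lactation replicates 2 and 4. Both states of each HF cow shared a slide, so the HF differences within slides are those of the animals, 0.70, 1.46, 1.73 and 0.81. Without HF animals 2 and 3 the HF effect was 0.75 in place of 1.17. Within the PR slides the differences were 0.78, 0.15 and 0.13, the first within animal 1 and the others partly or wholly across animals. On the only slide with both deer states the difference was -0.86. That slide held dry animal 3 and lactating animals 1 and 4, so the value is not a change within animals. Animals 1 and 4 are also those that carried the deer difference. All other deer arrays lay on slides of a single state. The Cy3 reference on the STEAP4 spot moved between states by -0.07 in HF, 0.21 in PR and -0.15 in deer, while Cy5 alone moved by 1.11, 0.71 and -0.93. The PR shift of Cy3 is not small beside the PR ratio difference of 0.50. Over the dry PR arrays Cy3 ran from 9.76 to 10.65.

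In ascending order the STEAP4 group means were -1.35 in lactating deer (SD 0.51), -1.06 in dry HF (SD 0.20), -0.56 in dry deer (SD 0.47), -0.10 in dry PR (SD 0.48), 0.11 in lactating HF (SD 0.52) and 0.40 in lactating PR (SD 0.22), each with n = 4. Every group overlapped its neighbour in this order. The gap between dry HF and dry deer was the only one larger than the SDs of the neighbours. Deer and cattle means were nearly level in the dry period, with a difference of 0.02, and lay 1.60 apart at peak lactation, with deer lower.

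Between the breeds, STEAP4 was 0.96 lower in dry HF than in dry PR cows (SE 0.28), just outside the threshold (adjusted p = 0.0592 in limma). The groups did not overlap: the highest dry HF value was -0.88 and the lowest dry PR value -0.66. In this contrast 3.17% of all probes tested were called. STEAP4 passed the threshold in 6 of 37 alternatives, and the difference ran from -1.15 to -0.73 over the 37. Those 6 were the fit with no background correction and the fits without lactating HF replicate 3, dry PR replicate 2, dry deer replicate 4, lactating deer replicate 2 or both lactating deer replicates 2 and 4, with adjusted p-values of 0.0130 to 0.0485. Leaving out only lactating or deer arrays cannot move this difference, which was -0.96 in each such fit. Only the SE and the adjusted p changed there. On the 1 slide with a dry cow of each breed it was -0.51. At peak lactation the breed difference was -0.28 (SE 0.28, adjusted p = 0.694). The HF response exceeded the PR response by 0.67 (SE 0.39), given as a description with no test. The breed differences within a state use the same STEAP4 arrays around which the set was built, so they are no separate support for it. The authors' deposited table for HF, which lists 437 probes, holds STEAP4 as its only member of the 9 genes, and their tables of 576 deer and 158 PR probes hold no member. In the authors' deposited table, STEAP4 ranged from -1.12 to -0.49 in dry HF and from -0.0024 to 1.22 in lactating HF.

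None of the other 8 genes was called between the states in HF, PR or deer. The background was as low: 0.00906% of probes were called in HF, 0% in PR and 0.00599% in deer. At an unadjusted p under 0.05, 3 of 27 probes of these genes passed in HF, 1 of 27 in PR and 4 of 26 tested in deer, where 8.11%, 6.04% and 9.54% of all probes did. The lead probes had a median effect of 0.11 in HF, 0.07 in PR and 0.05 in deer, against -0.01, 0.02 and 0.01 over all probes tested.

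**Figure D2:**
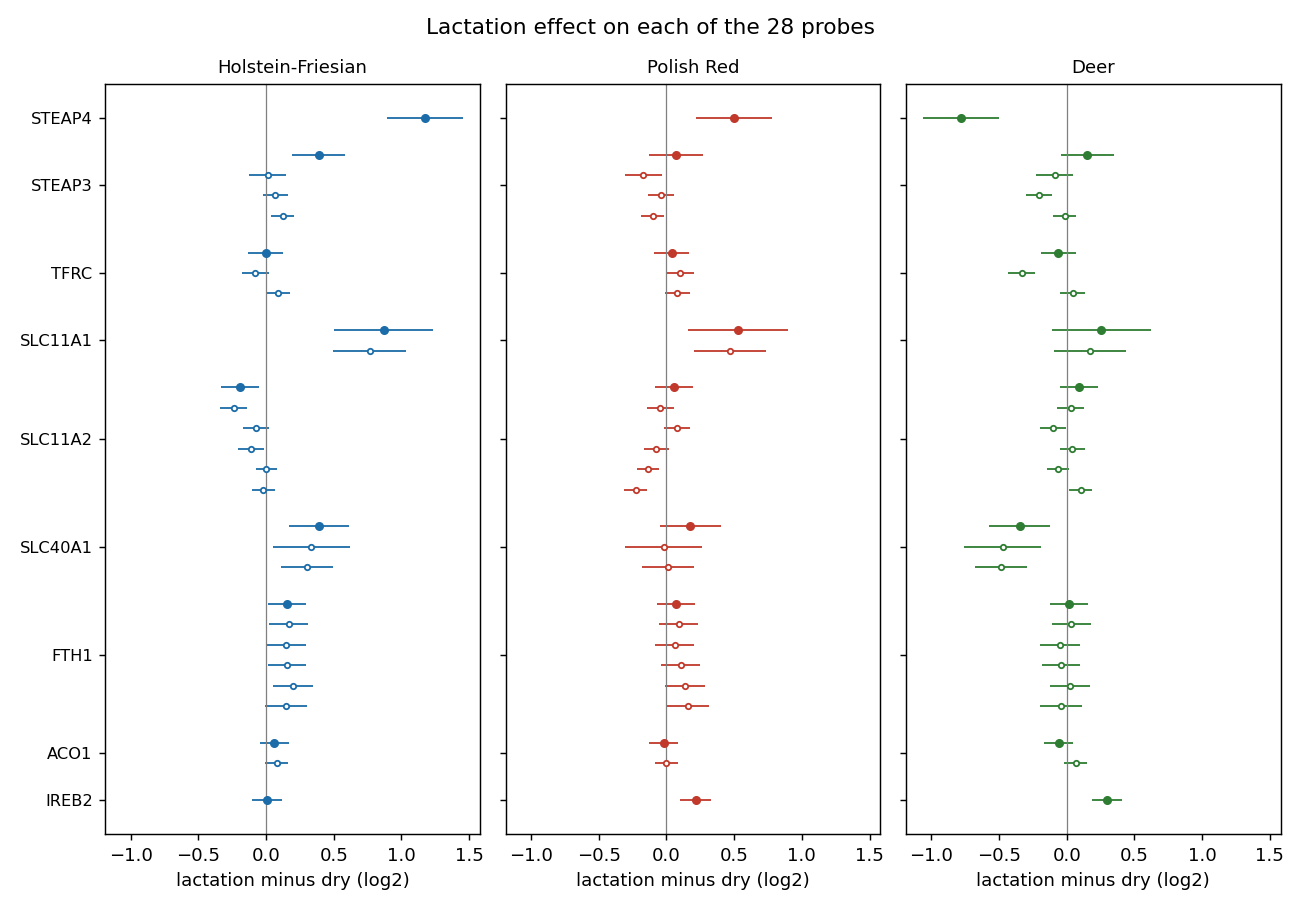
Lactation minus dry difference (log2, horizontal axis) of all 28 probes, grouped by gene, in Holstein-Friesian, Polish Red and deer. Points are fitted differences with their SE as bars, and filled points are lead probes; STEAP4 and SLC11A1 stand right of 0 in both breeds, and STEAP4 and all 3 SLC40A1 probes stand left of 0 in deer.

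STEAP3, the endosomal reductase of the same family, showed no called difference. Its lead probe read -0.39, -0.83, -0.84 and -0.44 in dry HF and -0.0032, -0.53, -0.04 and -0.37 in lactating HF. All 4 HF cows were higher in lactation, and the groups overlapped, with a difference of 0.39 (SE 0.20, adjusted p = 0.657 in limma). The difference was 0.07 in PR and 0.15 in deer. The other 3 STEAP3 probes lay between 0.01 and 0.12 in HF, so the lead probe had the largest HF value of the 4. In PR, the STEAP3 lead value was -0.17 without PR dry replicate 1.

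TFRC, the receptor for transferrin-bound iron, differed little between the states in cattle. Its probes were dim, with mean log2 intensities of 6.68 to 7.12, which limits this reading. The lead probe differed by -0.00090 in HF and 0.04 in PR, with an SE of 0.13. In deer it differed by -0.06, and the second-brightest TFRC probe by -0.33 (SE 0.10, adjusted p = 0.409), the lowest adjusted p of any member probe in deer. The 3 TFRC probes did not share a sign in HF or in deer.

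SLC11A1, the phagosomal metal transporter, had the largest lactation effect of the 8 genes in both breeds, though neither was called. In HF the lead probe read -1.10, -1.003, -0.53 and -1.24 in the dry period and -0.68, 0.32, 0.63 and -0.67 in lactation. All 4 HF cows had a higher lactation value, and the groups overlapped, since animals 1 and 4 in lactation lay below the highest dry value. The HF difference was 0.87 (SE 0.37, adjusted p = 0.525 in limma), and the second probe gave 0.76. In PR the dry values were -2.09, -1.33, -1.22 and -1.09, and the lactation values -1.05, -1.18, -1.07 and -0.33. All 4 PR cows had a higher lactation value, and the difference was 0.53 (SE 0.37, adjusted p = 0.827). It was 0.31 without PR dry replicate 1, and the HF value was 0.49 without HF animals 2 and 3. In deer 3 of 4 animals had a higher value, with a difference of 0.26 (SE 0.37, adjusted p = 0.856). On the only slide with both deer states it was -0.91, between dry animal 3 and lactating animals 1 and 4. Without lactating deer replicate 3 the SLC11A1 difference in deer was -0.08. Its deer response lay 0.44 below the cattle mean (-0.44, SE 0.45), which is within 1 SE of 0.

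SLC11A2, which carries reduced iron from the endosome into the cytosol, stayed close to 0 in every lactation contrast. Its lead probe differed by -0.19 in HF, 0.06 in PR and 0.09 in deer (SE 0.14). The 6 SLC11A2 probes ranged from -0.24 to 0.0032 in HF, from -0.23 to 0.08 in PR and from -0.10 to 0.10 in deer.

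SLC40A1, the iron exporter, had values above 0 in HF and below 0 in deer on all 3 probes, with no call in either. The HF differences were 0.39, 0.33 and 0.30 for the probes from brightest to dimmest. The deer differences were -0.35, -0.47 and -0.49, and the last had an adjusted p of 0.458 in limma. In PR the 3 probes gave 0.18, -0.02 and 0.01, and the lead probe gave -0.08 without PR dry replicate 1. On the lead probe the deer values were -1.28, -1.02, -0.98 and -1.05 in the dry period and -1.21, -0.98, -1.45 and -2.07 in lactation. The deer groups overlapped, and animal 4 alone changed by more than 1 unit, by -1.03, with the other animals between -0.47 and 0.07. The deer response of SLC40A1 was 0.63 below the cattle mean (-0.63, SE 0.27), the second largest after STEAP4 among the 9 lead probes. Without STEAP4, around which the set was built, 6 of 8 lead probes lay below 0, with a median of -0.08. Over all probes tested 51.7% lay above 0, with a median of 0.01.

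FTH1, the ferritin heavy chain, part of the iron store, showed no called difference between the states. All 6 probes lay between 0.15 and 0.20 in HF, between 0.06 and 0.16 in PR and between -0.05 and 0.04 in deer, with no call. The lead probe had an SE of 0.14.

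ACO1 and IREB2, the iron-sensing RNA-binding proteins, also had no called lactation effect. The ACO1 lead probe differed by 0.06 in HF, -0.02 in PR and -0.06 in deer (SE 0.11), at a low mean log2 intensity of 7.09. IREB2 read -0.92, -0.73, -0.58 and -0.82 in dry deer and -0.46, -0.32, -0.52 and -0.56 in lactating deer. All 4 deer were higher in lactation and the groups did not overlap, with a difference of 0.30 (SE 0.11, adjusted p = 0.450 in limma). On the slide with both deer states it was 0.07, between dry animal 3 and lactating animals 1 and 4. The IREB2 difference was 0.22 in PR and 0.01 in HF.

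IREB2 was the only one of the 9 genes called between the breeds, in the dry period, where 3.17% of all probes were called, 2.75% as higher in HF. At an unadjusted p under 0.05, 4 of 28 probes of the 9 genes passed there, and 22.4% of all probes did. Dry HF cows read 0.14, 0.26, 0.39 and 0.18, and dry PR cows -0.50, 0.21, -0.21 and -0.26. PR animal 2 lay within the HF range, and the other PR cows lay below it. HF was 0.43 higher (SE 0.11, adjusted p = 0.0398 in limma), a ratio of 1.35. Without PR dry replicate 1, the bright array, the difference was 0.33 and the adjusted p 0.108, and without HF animals 2 and 3 it was 0.35 with an adjusted p of 0.465. The call was also lost without any 1 of the 4 dry HF arrays or dry PR replicates 3 and 4, with adjusted p-values of 0.0521 to 0.125. On the slide that held a dry cow of each breed the difference was -0.04. At peak lactation none of the 9 genes was called between the breeds (0.0121% of all probes), and the IREB2 difference was 0.22 (adjusted p = 0.348). Leaving STEAP4 aside, none of the other 8 genes was called for a difference between the HF and PR responses (0% of all probes). The unadjusted count at peak lactation was 3 of 28 probes, where 15% of all probes passed. For the responses no probe of the other 8 genes passed, where 3.23% of all probes did.

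**Figure D3:**
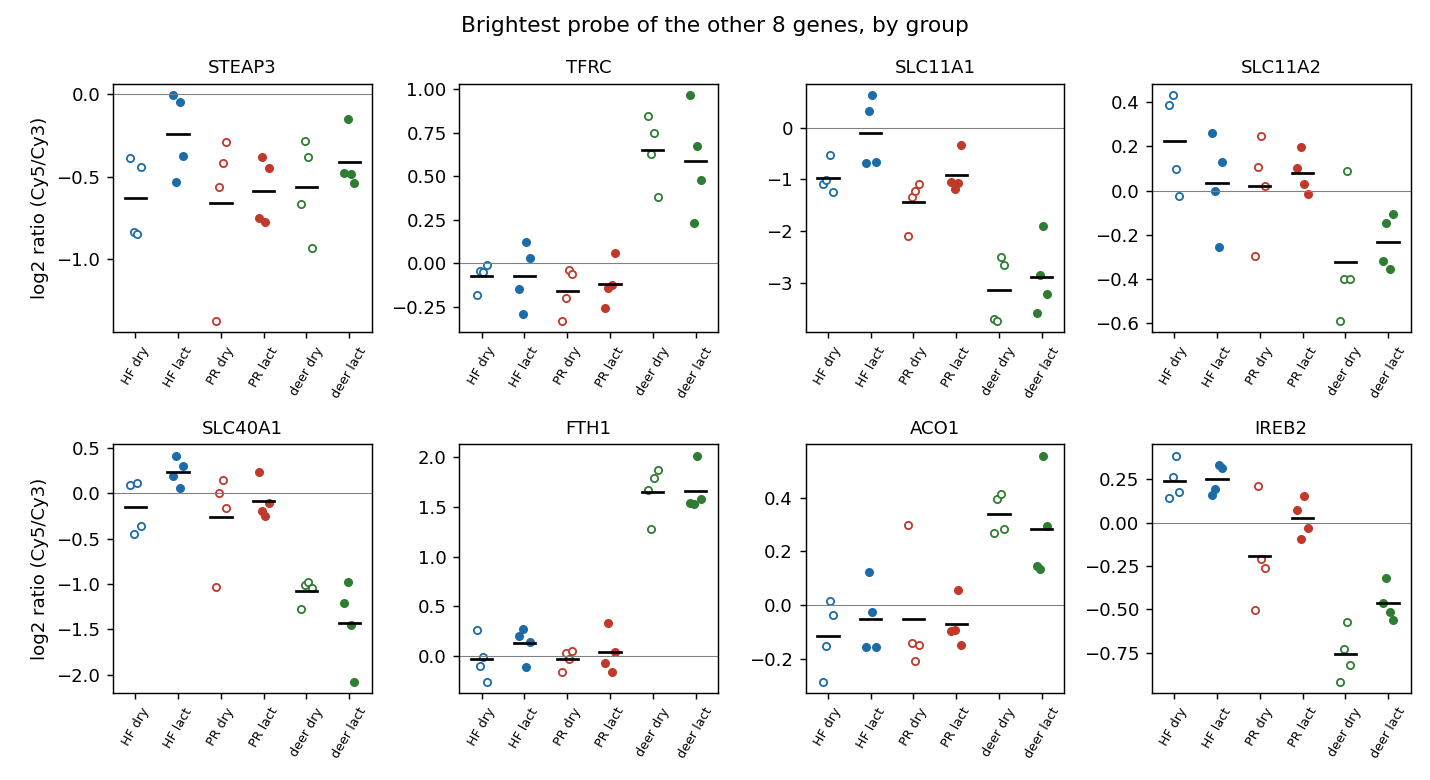
Log2 ratio to the cattle reference of the lead probe of 8 genes (vertical axis, own scale per panel) in the 6 groups. Points are animals, open in the dry period and filled in lactation, and bars are means of 4; all deer lie above all cattle for TFRC and FTH1, and both states of a breed or species overlap in every panel except IREB2 in deer.

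Deer differed from cattle for most of these genes, as did the array as a whole. In the dry period 7 of the 8 lead probes were called, 3 higher and 4 lower in deer, where 57.4% of all probes were called, 26.7% as higher and 30.7% as lower. At peak lactation 6 of 8 were called, 3 in each direction, where 49.3% of all probes were called, 22.2% as higher and 27.2% as lower. The members' shares are thus read against a background of this size. STEAP3 was called in neither state on its lead probe, but 2 of its other 3 probes were higher in deer in both states. With the median over its 4 probes STEAP3 was called, at 0.28 in the dry period (adjusted p = 0.000339 in limma) and 0.23 at peak lactation.

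FTH1, TFRC and ACO1 read higher in deer. FTH1 read 1.67, 1.27, 1.79 and 1.88 in dry deer and 1.54, 1.53, 2.02 and 1.58 in lactating deer. No cattle array exceeded 0.33. The deer mean was 1.68 above the cattle mean in the dry period (SE 0.12, adjusted p = 2.38e-10 in limma) and 1.59 above it at peak lactation (adjusted p = 8.44e-10). All 6 FTH1 probes were called in both states, with differences of 1.46 to 1.90 and of 1.303 to 1.70. These are not independent readings, as the lead and second-brightest probes share a run of 39 bases. The files also place a probe of this set at chr6:323197-323263, and the others on chromosome 29. TFRC was 0.77 higher in dry deer (SE 0.11, adjusted p = 5.40e-06) and 0.68 higher in lactating deer (adjusted p = 3.11e-05), and all 3 probes were called in both states. ACO1 was 0.42 and 0.34 higher (SE 0.09, adjusted p = 0.000565 and 0.00410), while its second probe, with differences of 0.03 and 0.06, was not called in either state.

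SLC11A1 read lower in deer on both probes. Its lead probe lay between -3.73 and -2.49 in dry deer and between -3.59 and -1.89 in lactating deer, against -2.09 to 0.63 over all cattle arrays. The groups overlapped only through dry PR replicate 1, the bright array, at -2.09. The differences were -1.94 in the dry period (SE 0.32, adjusted p = 2.17e-05 in limma) and -2.39 at peak lactation (adjusted p = 2.29e-06). The second probe gave -1.04 and -1.49. IREB2 was lower by -0.79 and -0.60 (SE 0.10, adjusted p = 5.03e-07 and 2.34e-05). SLC11A2 was lower in dry deer by -0.45 (adjusted p = 0.00360) and by -0.29 in lactating deer, which was not called (adjusted p = 0.0562). It passed the threshold there in 10 of 37 alternatives. These were the fits with no background correction, with the processed log ratio, with only the groups of the contrast, with the median over probes, without deer lactation replicates 2 and 4, without HF animals 2 and 3, and without lactating HF replicate 3, dry PR replicate 1 or dry deer replicates 1 or 3 alone, with adjusted p-values of 0.00753 to 0.0497. With array position in the model the SLC11A2 difference in dry deer was -0.28 and was not called (adjusted p = 0.172).

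The SLC40A1 probes disagreed in sign between deer and cattle. The lead probe was lower in deer, by -0.87 in the dry period and by -1.50 at peak lactation. The probe at 6738930 was higher in deer, by 1.91 and 1.28, and was called in both states. The probe at 6718482 was higher by 0.49 in the dry period, which was called, and differed by -0.16 at peak lactation. Taking the median over the 3 probes, SLC40A1 was 0.56 higher in dry deer (adjusted p = 0.0122 in limma), the opposite of the lead probe, and -0.13 at peak lactation. The files thus give no single direction for the SLC40A1 level in deer, although the change with lactation in deer had the same sign on all 3 probes.

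**Figure D4:**
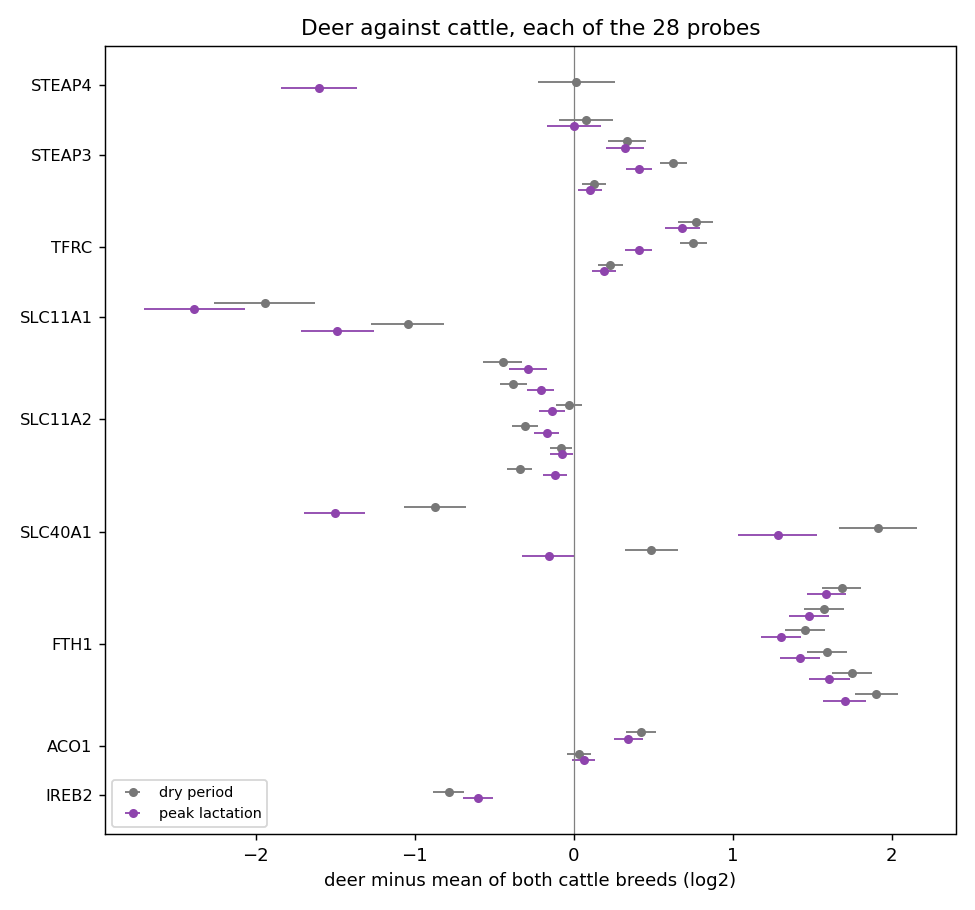
Deer minus the mean of both cattle breeds (log2, horizontal axis) for each of the 28 probes, grouped by gene, separately for each state. Points are fitted differences with their SE; the 6 FTH1 probes lie together between 1.3 and 1.9, the 3 SLC40A1 probes lie on both sides of 0, and STEAP4 moves from 0.02 to -1.60.

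A wider list of iron handling genes held 53 further genes, of which 50 had a probe and 43 to 45 were tested per contrast. None was called between the states in HF, PR or deer or between the breeds. At an unadjusted p under 0.05, 2 of 43 passed in HF, 5 of 44 in PR and 3 of 45 in deer, where 8.11%, 6.04% and 9.54% of all probes did. The values of those named next are descriptions of genes that were not called. In HF, 2 passed. HMOX1, the heme oxygenase that frees iron from heme, was 0.64 higher (SE 0.20, adjusted p = 0.342 in limma), and HP, haptoglobin, the plasma binder of free haemoglobin, was 1.21 higher (SE 0.48, adjusted p = 0.480). HP was also 1.08 higher in PR (adjusted p = 0.797), where 5 genes passed it, HP, NCOA4, FBXL5, GLRX3 and HIF1A. NCOA4, the ferritin receptor of autophagy, was 0.57 higher and FBXL5, the iron sensor that marks IREB2 for degradation, 0.54 higher. In deer NFS1, ISCA2 and SCARA5 passed it, and NFS1, the sulfur donor of iron-sulfur cluster assembly, was at 0.35.

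Between deer and cattle, 9 of the 45 further genes tested were called higher and 14 lower in the dry period (51.1%), and 10 higher and 15 lower at peak lactation (55.6%), where 57.4% and 49.3% of all probes were called. FTL, the ferritin light chain, had the lowest adjusted p in both states. It read 2.09 to 2.85 in dry deer and -1.02 to -0.27 in dry PR, and the deer mean was 3.09 above the cattle mean in the dry period (SE 0.19, adjusted p = 2.85e-11 in limma) and 2.43 above it at peak lactation. Both ferritin chains thus read higher in deer. STEAP2, a further reductase of the STEAP family, was lower by -1.81 in dry deer. BLVRB, a biliverdin reductase, was lower by -1.85 and -1.83, ISCA2, an assembly factor for iron-sulfur clusters, by -1.85 and -1.50, and SLC48A1, a heme transporter, by -1.21 and -1.09. HP was lower by -3.53 at peak lactation (adjusted p = 4.04e-07).

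The genes whose pattern was most like that of STEAP4 were sought among 11493 genes by the Pearson correlation of lead-probe log2 ratios over 24 arrays, after the mean of each breed or species was removed. The values describe arrays that share animals, slides and the reference, and the genes are LONRF3 (r = 0.860), PLEK (0.858), WLS (0.850), TBC1D23 (0.845) and ARHGAP26 (0.827). Since only breed means were removed, the lactation effects took part in the choice, and the signs these genes share with STEAP4 are not a separate result. LONRF3, a RING finger protein, differed by 1.15, 0.71 and -0.34, and PLEK, pleckstrin, a protein kinase C substrate of platelets and leukocytes, by 0.43, 0.39 and -0.27. With group means removed in place of breed means, PLEK ranked 1 and LONRF3 3, while ARHGAP26 fell to rank 30. SLC11A1 was the nearest of the other members, at r = 0.586 and rank 368, followed by SLC40A1 at 0.525 and rank 606.

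Values of neutrophil markers followed the direction of STEAP4 in all 3 breeds and species, and those of monocyte markers in HF and PR, with no marker called. In HF all 10 neutrophil markers were higher in lactation, with a median of 1.12, in PR 9 of 10 with a median of 0.57, and in deer 1 of 10 with a median of -0.50. The mean of the list ran from -1.07 to -0.44 over the dry HF arrays and from -0.39 to 1.19 over the lactating HF arrays, from -1.31 to -0.61 and from -0.53 to 0.05 in PR, and from -0.15 to 0.57 and from -1.01 to -0.04 in deer. S100A8 and S100A9, the calprotectin chains abundant in neutrophils, differed by 1.21 and 1.40 in HF, 1.19 and 0.60 in PR, and -0.90 and -1.01 in deer. By animal the list changed by 0.66, 1.66, 1.63 and 0.33 in HF, the animals with the larger STEAP4 change being 2 and 3 as well. In PR it changed by 1.36, 0.38, 0.08 and 0.21, so its largest change was in animal 1, whereas that of STEAP4 was in animal 2, and in animal 3 the STEAP4 value fell by 0.35. The PR animal 1 change rests on the bright dry array, at -1.31 on this list against -0.67, -0.61 and -0.69 on the other dry PR arrays. The arrays of HF animals 2 and 3 were those with low spike-in correlations. Both limit the reading by animal. In deer the list changed by -0.13, -0.21, -0.03 and -1.58, so animal 4 was lowest on both, while animal 1 had a STEAP4 change of -1.17 and a list change near 0. The monocyte list had 10 of 10 markers higher in HF (median 0.64), 9 of 10 in PR (0.48) and 5 of 10 in deer (-0.05). Its mean ran from -0.83 to -0.49 in dry HF and from -0.31 to 0.21 in lactating HF, from -1.11 to -0.57 and from -0.59 to -0.09 in PR, and from -0.54 to -0.17 and from -0.51 to -0.41 in deer. Other lists shifted too, again with no marker called. In HF none of 6 B cell markers (median -0.46), 5 NK markers (-0.40) or 4 platelet markers (-0.18) was higher in lactation. Of the HF erythroid markers 9 of 10 were higher (median 0.06), and of the HF T cell markers 1 of 9 was (median -0.11). In deer the red cell genes HBB, HBA and ALAS2 differed by -3.02, -1.59 and -1.16, and 3 of 10 erythroid markers were higher (median -0.06). The part of all these shifts in the STEAP4, SLC11A1 and other differences was not tested.

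**Figure D5:**
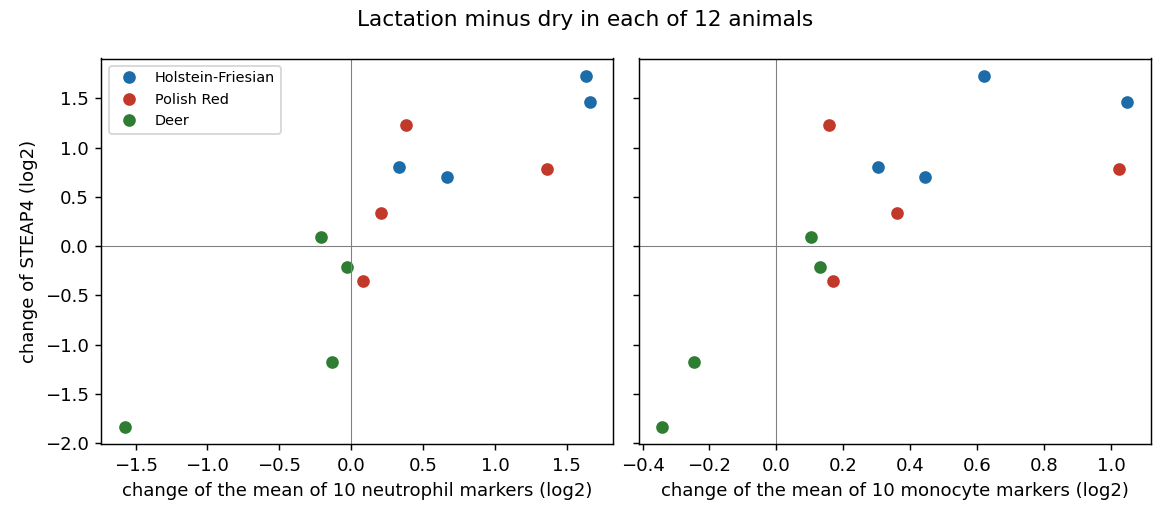
Change of STEAP4 from the dry period to lactation (log2, vertical axis) against the change of the mean of 10 neutrophil markers (left) and 10 monocyte markers (right) in the same animal. Each of the 12 points is an animal, coloured by breed or species; deer animal 4 is lowest on both axes at -1.58 and -1.83 on the left, and HF animals 2 and 3 are highest on the vertical axis.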

How the data were processed

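Blood RNA of 8 cows and 4 deer was measured on 24 two-colour arrays. The members, lists and alternatives were chosen with earlier results of these data known. Per the file headers, the deposited scanner output gives each spot's intensity in both channels, as a mean signal with its local background, beside yes-or-no calls for signal above background. Per the file headers, their log ratio is the log10 of the processed Cy5 over Cy3 signal, which was used in an alternative. The authors' deposited tables hold normalised log2 ratios for the probes they selected with GeneSpring, and how those were centred is not given in the sources used here. Their STEAP4 values correlated with the ones computed here at r = 0.992 over 24 arrays, as a description. Feature Extraction is named as version 10.7.3.1 in the submitters' processing notes and as 10.10.1.1 in the file headers.

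Spot means were corrected by normexp (offset 50) against the median local background. Ratios were adjusted by loess within arrays, with the 1417 control spots and uneven outlier spots at weight 0, outlier spots were left out, and spots of a probe were averaged. A limma model had 6 group means over 24 arrays and no animal term. Tests covered the probes that had Cy5 well above background on 3 or more of the 4 arrays in any group a contrast used. Adjustment was by Benjamini-Hochberg across every probe tested, with a threshold of 0.05. The number of arrays limits the precision. All 9 members are described. Of the other iron genes, those called in a contrast were named, up to 6 a contrast by adjusted p, with those counted in groups of 5 or fewer, of which some are given as counts only. A result that this rule would name is not reported here. The 5 genes most like STEAP4 were named.

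Subject numbers mark the same animal bled in both states, per the series' design text. Deviations of both arrays of an animal from the group means correlated over probes at 0.186 to 0.475 in HF, 0.02 to 0.264 in PR and 0.174 to 0.335 in deer. Probe positions are those of the files (UMD 3.1), and exon or UTR placement was not assigned. Tests ran in R 4.3.3 with limma 3.58.1, statmod 1.5.0 and data.table (version 1.17.8), and were tested on simulated data.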

Additional observations from a re-analysis of the deposited data

Results flagged for a closer look

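Among the 54 combinations of a member's lead probe and a group of 4 arrays, 4 held an array far from the other 3, judged by its gap to the nearest value relative to the group's range. Chance flags about 1 in 20 such groups. The STEAP3 value of lactating deer replicate 2 was -0.15, above the others of its group. The SLC11A1 value of lactating PR replicate 4 was -0.33, also above its group. The FTH1 value of lactating deer replicate 3 was 2.02, the highest of any array. The ACO1 value of dry PR replicate 1, the array of high intensity, was 0.30, whereas the other dry PR cows lay below 0.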

How the results depend on the processing

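Each result was recomputed under 13 planned or added settings and with each of 24 arrays left out in turn, and the setting without deer lactation replicates 2 and 4 was chosen after seeing the data. Of 9 comparisons, 7 kept their count or value under all of these, with a count within 1.5 times the main one taken as kept, as did 47 of 85 values of single genes and ranks. Among these, the count between deer and cattle at peak lactation, 6 here, ran from 4 to 7: it was 4 with Cy5 alone, where ACO1 and IREB2 lost their calls (adjusted p = 0.159 and 0.129), and SLC40A1 lost its call with the median over its probes (adjusted p = 0.609). The count of members called between HF and PR in the dry period, 1 here, was 2 without background correction and without deer lactation replicates 2 and 4. It was 0 with the processed log ratio, with no filter on dim probes, with only the groups of the contrast, without HF animals 2 and 3 and with Cy5 alone, and 0 to 2 over the arrays left out. The arrays whose loss ended the IREB2 call were all 4 dry HF arrays and dry PR replicates 1, 3 and 4. The count between deer and cattle in the dry period, 7 here, was 4 with Cy5 alone, where SLC11A2, ACO1 and IREB2 lost their calls (adjusted p = 0.340 to 0.467). The sign of SLC40A1 in dry deer reversed to 0.56 with the median over its probes. The replicate block (animal pairing) changed no call of a member. The STEAP4 difference between deer and cattle responses was -1.62 under it too. That value was fixed in advance, since every animal had an array in both states, and only the SE could change. The number of all probes called depended on the setting: 3 in HF (0 to 7), 2 in deer (0 to 100, and 7 under the block) and 0 in PR (0 to 1). Between the breeds it was 1045 in the dry period (0 to 4449) and 4 at peak lactation (0 to 656). Between deer and cattle it was 20191 in the dry period (15496 to 23338) and 16903 at peak lactation (13184 to 22403). With the median over the probes of a gene, genes were counted in place of probes. Then 7508 of 13576 genes were called between dry deer and cattle, and 6285 of 13278 at peak lactation. The causes were not tested. Saturation did not limit any member, and 2 dim probes limit STEAP3 and SLC11A2, with mean log2 intensities of 6.57 and 6.60. The TFRC probes, at 6.68 to 7.12, and the ACO1 probes, at 6.77 and 7.09, were not much brighter. Small differences of TFRC and ACO1 are limited by this too.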
